A study of Mus musculus with 5 samples.

Results

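The genes described here encode glycoproteins and proteoglycans of the extracellular matrix, the metalloproteinases that cut it and the inhibitors of those enzymes. They are a list of 49 mouse genes, of which 48 had a probe on the array, among 20016 named genes in all. No probe was matched to Prelp. RNA levels in mouse tumour cells were read on 5 microarrays of 1 colour each, with 1 array per group. The lines came from soft tissue sarcomas and carry alleles that express the fusion gene EWS/ATF1 when doxycycline is given, and their mice were of mixed ICR, 129 and C57/BL6 descent. The groups are a control, a low dose (lowDox) and a high dose (highDox) taken at 3 h and a control and a high dose taken at 48 h. All of them are tumour cells that carry the inducible fusion, the controls included. The labels give neither the doxycycline concentrations, nor whether the controls received any, nor which tumour line gave each array. A difference between arrays can therefore include a difference between lines.

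The matrix is a mesh of fibrous and gel-forming proteins that mesenchymal cells secrete around themselves. Small leucine-rich proteoglycans sit on collagen fibrils, fibrillins and fibulins build elastic fibres, and laminins with nidogens form the basement membrane. Metalloproteinases cleave these proteins, and the tissue inhibitors of metalloproteinases (TIMPs) block the enzymes. The promoters of some metalloproteinase genes are textbook targets of the transcription factor AP-1, of which Fos is a subunit, while ATF1 binds the cAMP response element (CRE).

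Of the 49 members, 35 had a promoter window in the RefSeq table of build GRCm38.p6. The 250 bases before each start were searched on both strands for the AP-1 letters TGACTCA and for the full CRE letters TGACGTCA, neither of which contains the other. AP-1 letters were found in 3 members (8.57%), against 5.16% of all 27025 genes with a window and 4.46% of all windows. CRE letters were found in 1 member (2.86%), against 1.77% of genes and 1.55% of windows. These 4 stretches are shown because they hold the letters of the factors named in the study's title, with the match in capitals. They cover the last 120 bases before the start, 5′ to 3′ on the gene's strand, at chr9:7272394-7272513 (plus strand) for Mmp13, chr9:7445702-7445821 (plus) for Mmp3, chr3:95739570-95739689 (minus) for Ecm1 and chr17:75005409-75005528 (plus) for Ltbp1.
Mmp13: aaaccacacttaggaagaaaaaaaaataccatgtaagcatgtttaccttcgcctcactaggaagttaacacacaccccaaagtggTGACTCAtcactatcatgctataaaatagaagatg
Mmp3: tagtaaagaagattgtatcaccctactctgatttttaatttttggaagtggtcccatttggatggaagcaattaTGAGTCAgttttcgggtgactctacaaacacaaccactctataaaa
Ecm1: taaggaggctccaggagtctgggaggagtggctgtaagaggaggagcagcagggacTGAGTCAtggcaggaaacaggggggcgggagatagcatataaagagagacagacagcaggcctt
Ltbp1: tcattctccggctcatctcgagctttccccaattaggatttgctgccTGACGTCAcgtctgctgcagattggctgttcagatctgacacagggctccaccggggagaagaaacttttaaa
The match begins 35 bases before the start in Mmp13, 46 in Mmp3, 64 in Ecm1 and 73 in Ltbp1. The AP-1 letters stand on the opposite strand in Mmp3 and Ecm1. A match of letters is not evidence of binding, and these windows belong to a later build than the one named in the file headers.

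The arrays hold 55681 probes, of which 30884 to 33427 were well above background depending on the array, and the 75th percentile of signal ran from 419.5 to 725. Levels are log2 signal minus the array's own 75th percentile, and they are compared between arrays for 1 probe, never between genes. With 1 array per group no difference between 2 arrays has a replicate check. Differences are therefore called by size, at 2-fold where both arrays were above background, and the error given beside each is the scanner's, which covers technical error within an array only. Where 1 array was below background only a bound is given, the brighter level against the higher of the dim probe's own level and that of the dimmest probe counted as above background on that array. Each called difference is also given against the other control, after normexp background correction (a model of signal and background, here from median spot signals) or as the mean of all probes where that ended a call or moved a fold by over 1.5 times. The normexp setting also adds an offset of 50 to each signal, beside array median signals of 26.7 to 42.6. Such an offset by itself makes the folds of dim probes smaller. Of the 48 members, 39 were above background on all 5 arrays and only Mmp9 was below it on every array. Fos, the gene in the study's title, was at -2.22, -0.49 and 2.18 at 3 h in the order control, low and high, and at -2.22 and 2.86 at 48 h in the order control and high.

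**Figure D1:**
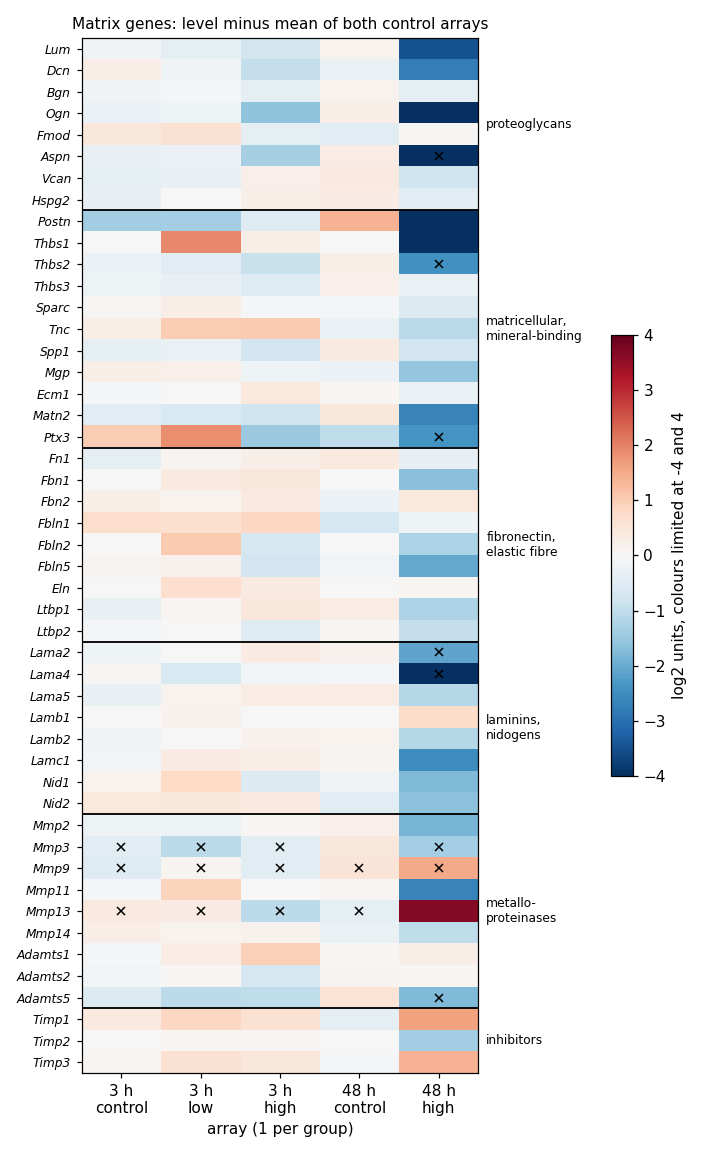
Level of each of the 48 members on each array minus the mean of both control arrays, in log2 units, with colours limited at -4 and 4, members grouped by role and crosses marking probes below background. The 48 h high-dose column is blue for most members, while Mmp13, Timp1, Timp3 and Mmp9 are reddest there, Mmp9 with a cross on every array. Thbs1 and Ptx3 are darkest red on the 3 h low-dose array.

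After 48 h of the high dose most matrix genes were lower than in the 48 h control. Of 39 members measured on both arrays, 22 were at least 2-fold lower, 2 were higher and 15 stayed under 2-fold, and a further 6 were lower and 1 higher as bounds. Among all 13739 genes measured on these arrays 10.1% were 2-fold lower and 9.94% higher, or 12.0% and 11.2% of all genes with bounds included. The median difference of the members was -1.19, beside 0.05 for all measured genes. At 1.5-fold 32 of 39 members were called in either direction, beside 40.1% of all genes. Against the 3 h control array 18 members were lower and 2 higher (median -0.94), where 8.85% and 9.44% of all genes were. Against both controls 16 of 39 were lower and 2 higher, beside 7.09% and 7.41% of all genes. The members were chosen with the direction of several of them known, so these counts describe the list.

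**Figure D2:**
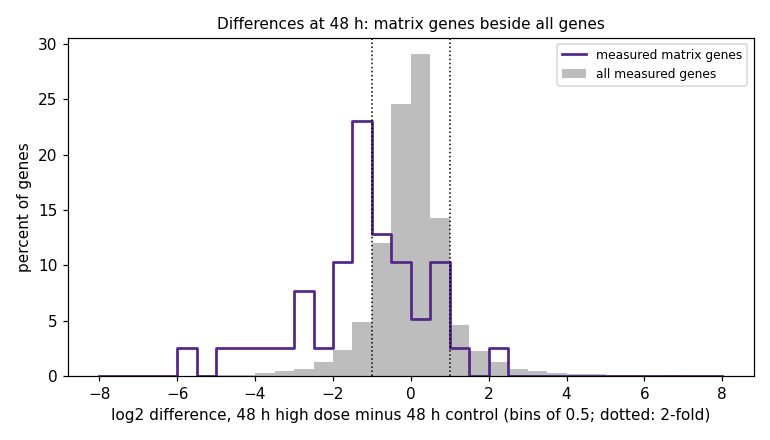
Share of genes, in percent, by log2 difference between the 48 h high-dose and 48 h control arrays in bins of 0.5, with grey bars for all 13739 measured genes and the purple line for the 39 measured members. The members' distribution lies to the left, with a median of -1.19 against 0.05.

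Other genes moved on the same arrays and their part in the matrix values was not tested. Markers of dividing cells were higher on the 48 h high-dose array in 9 of 9 measured genes, with Bub1 higher as a bound, and their summed level was 7.32 there and 4.51 to 4.86 on the other arrays. Mki67, the proliferation marker, was at -3.79 in the 48 h control and 3.06 at the high dose. Fibroblast and mesenchyme markers were 2-fold lower in 7 of 10 genes and higher in 0, with a summed level of 4.54 on the 48 h high-dose array and 5.32 to 5.49 elsewhere, and all 10 were above background on every array. Prrx1 and Twist2 weigh most in the 48 h sums, at 4.75 and 1.79 in the control and 3.88 and 2.64 at the high dose. Neither was among the 7 lower genes. Macrophage markers were higher in 6 of 7 measured genes, and 4 more as bounds. Of that list of 13, 12 were above background on the 48 h high-dose array and 7 on the 48 h control array, with a summed level of 5.57 against 3.19. Fewer cells of a type and less RNA per cell cannot be told apart in bulk RNA.

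Proteoglycans of the small leucine-rich family were among the members with the largest differences. Of 8 proteoglycan genes on the array, 7 were measured at 48 h, 4 were 2-fold lower, 0 were higher and 1 more, Aspn, was lower as a bound (median -1.19). Among all measured genes 10.1% were lower and 9.94% higher at 48 h, or 12.0% and 11.2% of all genes with bounds included. The same shares stand beside the counts of the other groups below. Ogn, encoding osteoglycin (mimecan), was at 3.35, 3.43 and 2.01 at 3 h in the order control, low and high dose, and at 3.88 and -0.69 on the 48 h control and high-dose arrays. Both high-dose arrays were thus below all others. Its high-dose difference was -1.34 (scanner error 0.20) at 3 h and -4.57 (0.20) at 48 h, a 23.8-fold lower signal. Aspn, encoding asporin, which binds collagen and TGF-beta, was at -0.71, -0.64 and -1.74 at 3 h and at -0.11 in the 48 h control. On the 48 h high-dose array its probe was below background, so that the level was at least 35.9-fold lower than in the control. Like Ogn, Aspn was lowest on the high-dose array at each time, though after normexp its 3 h difference was -0.75, under 2-fold.

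Dcn, encoding decorin, which binds collagen fibrils and TGF-beta, stood at 1.22, 0.83 and 0.03 at 3 h in the order control, low and high, and at 0.71 and -1.79 at 48 h. It was 2.29-fold lower at the high dose at 3 h and 5.67-fold lower at 48 h, but the 3 h high-dose level was only 0.68 below the 48 h control. Lum, encoding lumican, which regulates collagen fibril assembly, was at -1.53, -1.78 and -2.12 and then at -1.23 and -4.86, a 12.4-fold lower signal at 48 h. After normexp that log2 difference of -3.63 was -1.63. Its differences at 3 h were within 2-fold. Vcan, encoding the large hyaluronan-binding proteoglycan versican, was at 1.75 in the 48 h control and 0.56 at the high dose. That difference of -1.19 came from the brightest of 3 probes, and the others gave -0.20 and -0.09, so the probes disagree on whether versican was lower. The call was lost with the mean of the probes (-0.49) and against the 3 h control (-0.42). Under 2-fold at 48 h stayed Bgn (biglycan) at -0.52, Hspg2 (perlecan, of basement membranes) at -0.78 and Fmod (fibromodulin) at 0.50.

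Among matricellular and mineral-binding glycoproteins 5 of 9 measured genes were 2-fold lower at 48 h, 0 higher, and 2 of the 11 on the array were lower as bounds (median -1.13). Postn, encoding periostin, which links matrix proteins to integrins, was at -1.18, -1.16 and -0.30 at 3 h and at 1.60 and -3.98 at 48 h. It was 47.9-fold lower at 48 h (log2 difference -5.58, scanner error 0.26), or 16.03-fold after normexp. The 48 h control was the highest of the arrays, 2.78 above the 3 h control, and against the 3 h control the 48 h high dose was lower by 2.80 on the log2 scale. Thbs1, encoding thrombospondin 1, a matricellular protein that limits new vessel growth and can activate latent TGF-beta, was at 0.79, 2.68 and 1.03 at 3 h and at 0.74 and -3.42 at 48 h. The control arrays differed by 0.05, the low-dose array stood above all others and the 48 h high-dose array below all. Against the controls the low dose was higher by 1.89 and 1.94 (scanner error 0.20 each), and the 48 h high dose differed by -4.16 and -4.21. After normexp the difference from the 48 h control was -2.89.

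Matn2, encoding matrilin 2, an adaptor that joins matrix filaments, was at -0.44, -0.59 and -0.76 at 3 h and at 0.48 and -2.64 at 48 h, 8.69-fold lower. That became 4.72-fold after normexp and 4.59-fold against the 3 h control. Mgp (matrix Gla protein, an inhibitor of calcification) was at 5.75 in the 48 h control and 4.46 at the high dose, differing from the controls by -1.29 and -1.79. Spp1 (osteopontin, a phosphoprotein that binds integrins) was at -2.48, -2.38 and -2.88 at 3 h and at -1.75 and -2.88 at 48 h. Its call at 48 h ended against the 3 h control (-0.40) and after normexp (-0.58). Thbs2, another thrombospondin gene, was at least 5.17-fold lower at 48 h, as its probe was below background at the high dose. Ptx3, encoding a soluble pentraxin of innate immunity that also organises hyaluronan matrix, was at -1.99, -1.15 and -4.48 at 3 h and at -4.01 in the 48 h control, and was below background at the 48 h high dose. It was 5.61-fold lower at the high dose than in the 3 h control and 10.1-fold lower than at the low dose, or 2.15-fold and 3.64-fold after normexp. The 3 h high-dose level was, however, only 0.47 below the 48 h control, and the control arrays themselves differed by -2.02. Of the 13 macrophage markers, 10 were above background in the 3 h control, 11 at the low dose, 7 at 3 h of high doxycycline, 7 in the 48 h control and 12 on the last array. Their summed levels were 3.21, 3.11, 2.93, 3.19 and 5.57. Csf1r weighs most in these sums, at 2.55, 2.52, 2.65, 2.89 and 5.30. Against the 3 h control 2 of 7 measured markers were 2-fold lower at the 3 h high dose, 0 higher and 1 lower as a bound. The 48 h control gave the same counts. Ctss, for example, was at -0.78, -0.87, -4.79, -4.67 and 1.43 on the 5 arrays. The part of these markers in the Ptx3 values was not tested. The remaining genes of this group, Thbs3, Sparc (a collagen-binding counter-adhesive protein), Tnc (tenascin C) and Ecm1 (extracellular matrix protein 1), differed by -0.83 to -0.33 at 48 h.

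**Figure D3:**
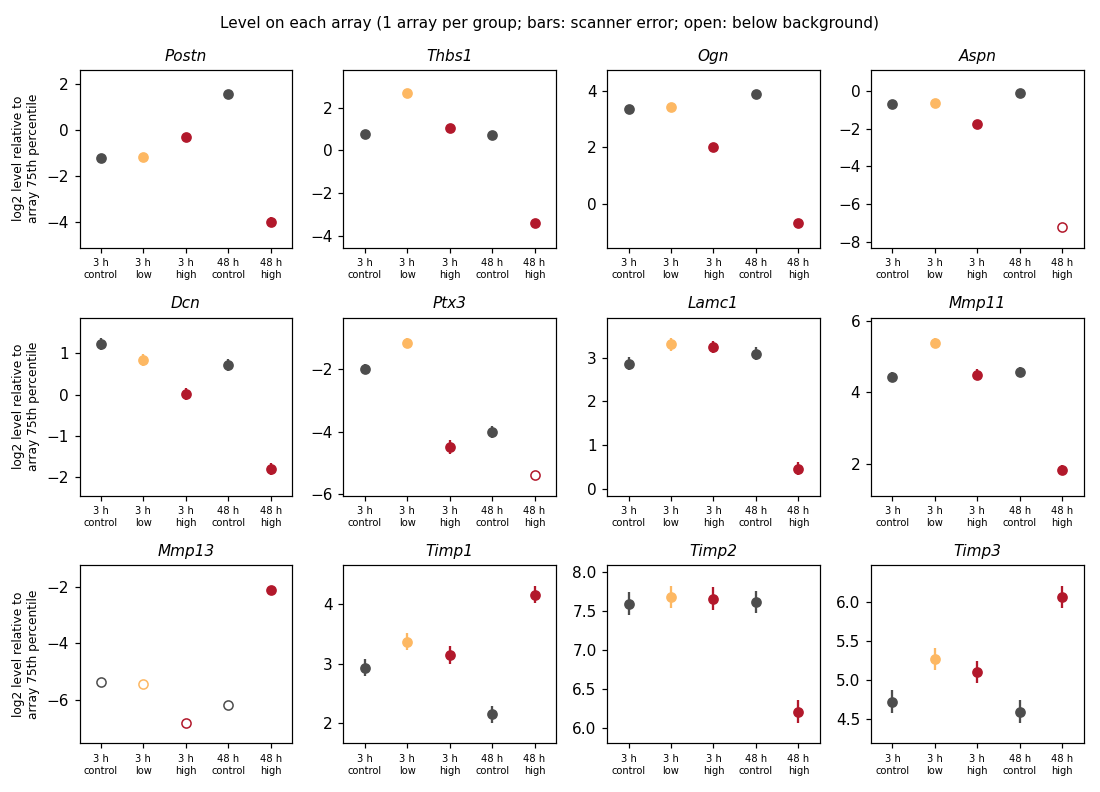
Log2 level relative to the array's 75th percentile for 12 members on the 5 arrays, with 1 point per array, bars for the scanner error and open circles for probes below background. Postn, Thbs1, Ogn, Dcn, Lamc1, Mmp11 and Timp2 are lowest on the 48 h high-dose array, and Mmp13, Timp1 and Timp3 are highest there.

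Fibronectin and the genes of elastic fibres showed smaller differences. Of 9 measured genes 5 were 2-fold lower at 48 h and 0 higher (median -1.04). Fbln5, encoding fibulin 5, needed for elastic fibre assembly, was at 1.37, 1.44 and 0.50 at 3 h and at 1.17 and -0.78 at 48 h, so the high dose was below all other arrays at each time. The differences were -0.87 at 3 h and -1.95 at 48 h (scanner error 0.20 each), the latter -0.71 as the mean of its probes. That mean takes in a probe that was above background on 0 arrays. Fbn1, encoding the microfibril protein fibrillin 1, was at 1.31, 1.71 and 1.76 and then at 1.32 and -0.35, a difference of -1.68 at 48 h. Ltbp1, encoding a latent TGF-beta binding protein and the member with the CRE letters above, was at 0.93, 1.31 and 1.67 at 3 h and at 1.51 and -0.01 at 48 h. Its differences from the time-matched controls had opposite signs, 0.73 and -1.52, and the 48 h high dose was -0.94 from the 3 h control. Opposite directions of at least 1.5-fold each were seen in 6 of 39 members, beside 2.11% of all genes. Ltbp2, a relative, was at -0.15 in the 48 h control and -1.19 with high doxycycline. Its difference of -1.04 fell under 2-fold against the 3 h control (-0.89) and after normexp (-0.80).

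Fbln2, encoding fibulin 2, a protein of basement membranes and elastic fibres, was at -0.996, 0.04 and -1.71 at 3 h and at -1.04 and -2.28 at 48 h. The control arrays differed by 0.04. The low dose was higher than the controls by 1.03 and 1.07, just past 2-fold and under it with median centring (0.96) or normexp (0.91), and the 3 h high dose differed from the low dose by -1.75. The 48 h difference of -1.24 was -0.89 after normexp. Fibrillin 2 (Fbn2) and fibulin 1 (Fbln1) were under 2-fold at 48 h, at 0.66 and 0.54, as were elastin (Eln) at 0.08 and fibronectin (Fn1), the adhesive glycoprotein that integrins bind, at -0.70. Fn1 was at 6.25, 6.75 and 6.86 at 3 h and at 7.02 and 6.31 at 48 h. Its 48 h high-dose level was thus close to the 3 h control.

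Laminin and nidogen genes were lower at 48 h in 5 of 6 measured members and higher in 0, and 2 more, Lama2 and Lama4, were lower as bounds (median -1.36). Lamc1, encoding the gamma chain shared by most laminins, was at 2.86, 3.30 and 3.24 at 3 h and at 3.09 and 0.46 at 48 h. It was 6.18-fold lower at 48 h (log2 difference -2.63, scanner error 0.20), with all other arrays within 0.44 of each other. Lama4, the laminin alpha 4 chain of vessel and muscle basement membranes, was at least 9.95-fold lower, and Lama2, the alpha chain of muscle and Schwann cell laminin, at least 4.84-fold. Both were measured on every array except the 48 h high dose. Lama5 and Lamb2 were at -1.44 and -1.29, but at -0.82 and -0.98 against the 3 h control, under 2-fold. Lamb1, the only laminin gene among the members that was above its control, was at 0.72 and did not reach 2-fold. Nid1 and Nid2, the nidogens that bridge laminin and type IV collagen, were at -1.62 and -1.20, and at -1.92 and -2.06 against the 3 h control. The Nid1 call at 48 h was lost after normexp (-0.72) and with the mean of its probes (-0.22). That mean, however, takes in probes that were above background on 0 arrays. At 3 h Nid1 was at -1.48, -0.85 and -2.17, so the high dose lay 2.50-fold below the low dose, with the control between them. It was under 2-fold after normexp (-0.94) or with the same mean of its probes (-0.97).

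**Figure D4:**
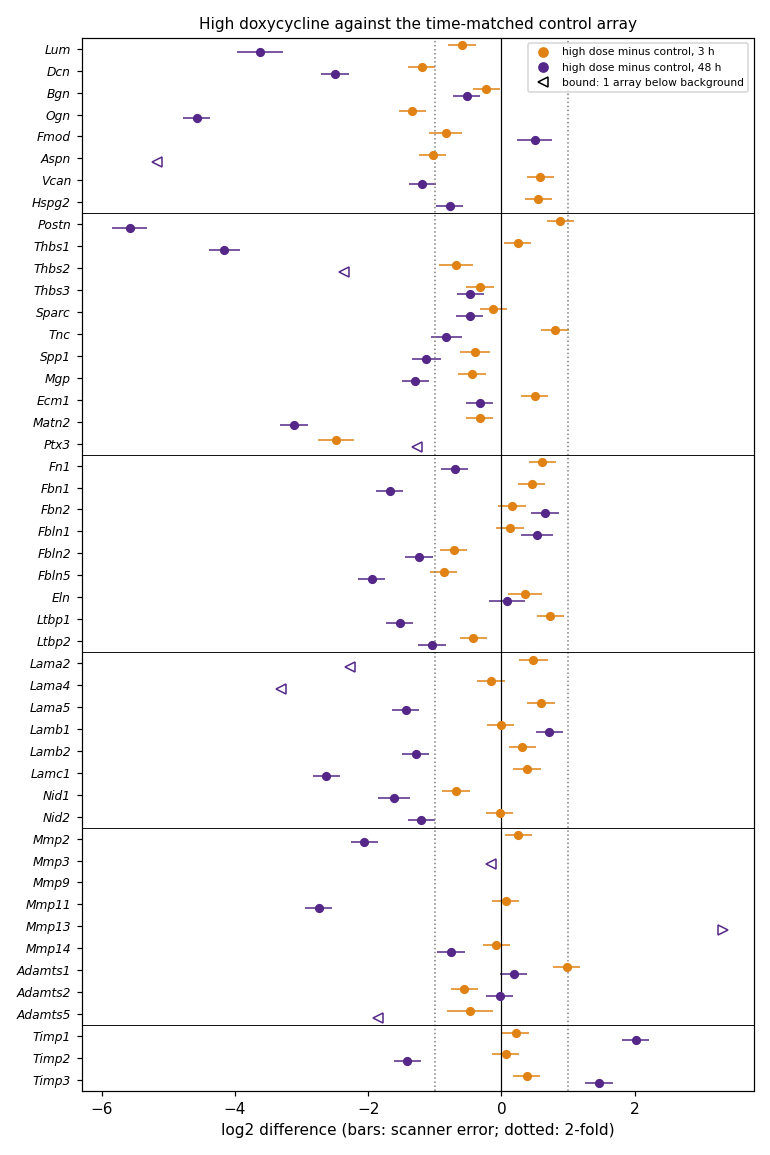
Log2 difference between the high dose and the time-matched control array for each member at 3 h (orange) and 48 h (purple), with bars for the scanner error, open triangles for bounds and dotted lines at 2-fold. Most purple points lie left of the lower 2-fold line, and all orange points lie between the lines except Dcn, Ogn, Aspn and Ptx3.

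The metalloproteinases did not share 1 direction at 48 h. Of 9 genes, 5 were measured on both 48 h arrays, of which 2 were lower and 0 higher, and there was 1 bound in each direction. Mmp11, encoding stromelysin 3, was at 4.44, 5.38 and 4.50 at 3 h and at 4.57 and 1.82 at 48 h. It was 6.70-fold lower at the 48 h high dose, and its second probe gave -2.77 where the brightest gave -2.74. On the low-dose array it was 0.94 above the 3 h control. Mmp2, encoding gelatinase A, was at -0.24, -0.25 and 0.02 at 3 h and at 0.18 and -1.88 at 48 h, 4.16-fold lower. Mmp14, the membrane-bound activator of pro-MMP2, was at 3.19, 3.08 and 3.11 and then at 2.69 and 1.93. Its difference at 48 h was -0.76 against the 48 h control and -1.26 against the 3 h control.

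Mmp13, encoding the collagen-cleaving collagenase 3, was below background on the 3 h arrays and in the 48 h control and at -2.12 on the 48 h high-dose array. It was at least 10.04-fold higher there than in the 48 h control and at least 8.32-fold higher than in the 3 h control. Fos was 33.7-fold higher on the same array, and 21.1-fold above its control at 3 h of the high dose. Macrophage markers were higher on the 48 h high-dose array as given above. The part of either in the Mmp13 values at 3 h or 48 h was not tested. Mmp3 (stromelysin 1), the other metalloproteinase gene with AP-1 letters in its window, was above background only in the 48 h control, at -5.13, near the dim end. Mmp9 (gelatinase B) was not well above background on any array. Of the ADAMTS proteases, Adamts5, an aggrecanase, was at least 3.62-fold lower at 48 h than the 48 h control. Its probe was dim, at -4.50 in the 3 h control and -3.42 in the 48 h control. Against the 3 h control its bound did not reach 2-fold. Adamts1, which cleaves versican and aggrecan, was at 4.44, 4.78 and 5.42 at 3 h and at 4.51 and 4.70 at 48 h, so its 3 h high-dose level, 0.98 above the control, was the highest and missed 2-fold narrowly. Adamts2, the procollagen N-proteinase, was at 2.23 and 2.20 on the 48 h arrays.

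The 3 inhibitor genes differed in direction at 48 h. Timp1 was at 2.93, 3.37 and 3.14 at 3 h and at 2.15 and 4.16 at 48 h, 4.05-fold higher at the high dose and 2.35-fold higher than the 3 h control. Timp3, whose product binds to the matrix, was at 4.72, 5.27 and 5.10 at 3 h and at 4.59 and 6.06 at 48 h, 2.76-fold higher. Both were highest on the 48 h high-dose array. Timp2, which also takes part in MMP2 activation, was at 7.60, 7.68 and 7.66 at 3 h and at 7.62 and 6.21 at 48 h. The first 4 of these levels lay within 0.08 of each other, and the last was 2.66-fold below its control. A second Timp2 probe gave -0.71 at 48 h, the same direction but under 2-fold.

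Fewer members passed 2-fold at 3 h of the high dose than at 48 h. At 3 h, 4 of the 45 that were measured were 2-fold lower than the control, namely Dcn, Ogn, Aspn and Ptx3, and 0 were higher, where 1.45% of all 14005 measured genes were lower and 1.85% higher (3.30% in either direction). Those shares are 203 genes lower and 259 higher, and they turned to 277 lower and 190 higher with each array centred on its median. The member median was -0.01, as for all genes. Of the 4, only Ogn and Aspn were also 2-fold lower than the 48 h control, at -1.87 and -1.63, and the share of all genes lower than both controls was 0.444%. At the low dose 2 of 45 were higher, Thbs1 and Fbln2, and 0 lower, where 0.789% and 0.583% of all genes were (111 and 82 genes, or 89 and 101 with median centring). Both were also higher than the 48 h control, and 0.436% of all genes were higher than both controls. Comparing the doses directly, the high-dose array was 2-fold below the low-dose array in 6 of 45 members and above it in 0, namely Ptx3, Fbln2, Thbs1, Ogn, Nid1 and Aspn, with values from -3.33 to -1.10 (Aspn -0.79 after normexp), where 0.913% of all genes were lower and 1.27% higher. Smooth muscle markers differed between the same arrays, being lower at the high dose in 3 of 4 measured genes, with a summed level of 3.68 at the low dose, 2.19 at the high dose and 2.48 in the 3 h control. Macrophage markers were lower at the high dose in 2 of 7 measured genes, and 1 more as a bound. Fibroblast and mesenchyme markers were lower in 2 of 10, and 0 of either list were higher. Whether these marker differences relate to the matrix values was not tested. The low and high dose at 3 h share their control array, so their differences from it are not independent. Set against the 48 h control array, 9 of 45 members were called at the high dose, 7 of them lower, and 10 of 45 at the low dose, 7 of them higher, beside 5.05% and 5.34% of all genes in either direction. At 1.5-fold 17 of 45 members were called at the high dose, 8 at the low dose and 13 between the doses, beside 11.0%, 5.92% and 6.90% of all genes.

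Between the controls 4 of 45 members passed 2-fold, where 3.87% of all genes did (351 higher and 191 lower at 48 h, or 264 and 263 with median centring). Postn was higher by 2.78 and Adamts5 by 1.08 in the 48 h control, and Fbln1 and Ptx3 differed by -1.42 and -2.02. The Adamts5 call was lost with each array centred on its median (0.96), after quantile normalization (0.95), after normexp (0.51) and with the mean of its probes (0.62). Fmod passed 2-fold in its place with median centring (-1.06) and quantile normalization (-1.02), so that 1 call was then upward and 3 downward. After normexp Fbln1 was at -0.77 and Ptx3 at -1.07. At 1.5-fold 14 of 45 members differed between the controls, beside 11.2% of all genes. Differences of these 4 genes at either dose therefore depend on the control used.

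The test used here combined both times, because a single time has 1 array per group. A limma fit over the controls and the high dose, 4 arrays in all, with a term for time leaves 1 residual degree of freedom, and it counts an effect at 1 time only as error. None of the 45 members tested passed at a Benjamini-Hochberg adjusted p of 0.05, the smallest being 0.884, and 0 of all 14601 genes (0%) did. At an unadjusted limma p under 0.05 were 5 of 45 members (11.1%) and 506 of all genes (3.47%). These 5 were Dcn (log2 difference -1.85, SE 0.43), Ogn (-2.96, SE 0.85), Fbln5 (-1.41, SE 0.38), Ptx3 (-1.93, SE 0.55) and Fbln2 (-0.98, SE 0.35). All were lower, and each had a lower level at the high dose than in the time-matched control at both times. The Ptx3 probe was, however, below background on the 48 h high-dose array, and the fit took its level there as it stood.

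Other genes of the matrix, from lists of related genes, were called in both directions at 48 h. How these lists differ from the members was not tested. At 2-fold 10.1% of all measured genes were lower and 9.94% higher, or 12.0% and 11.2% of all genes with bounds included. Among 40 other glycoprotein genes 29 were measured, with 6 lower, 5 higher and 5 lower as bounds (median -0.33). Edil3, encoding an integrin-binding protein of vessels, was at least 85.0-fold lower, Comp, the cartilage oligomeric matrix protein gene, at least 12.5-fold lower, Ecm2 at least 11.3-fold lower and Lamb3, a laminin beta chain, was at -3.66. Against the 3 h control Comp had a bound of only -1.24 on the log2 scale. In the other direction were Cthrc1 (a secreted collagen triple helix repeat protein) at 2.04, Mfap5 (a microfibril protein) at 1.91 and Emilin2 (an elastic fibre protein) at 1.57. Against the 3 h control these were 0.44, 0.35 and 1.51, so that Cthrc1 and Mfap5 were under 2-fold. The list then had 6 genes lower and 2 higher of 28 measured, where 8.85% and 9.44% of all genes were. Among 26 other proteoglycan and hyaluronan genes 18 were measured, with 4 lower and 4 higher, and 4 lower and 1 higher as bounds (median 0.25). Kera (keratocan) and Omd (osteomodulin), relatives of lumican, were at least 15.9-fold and 10.4-fold lower, and the syndecan gene Sdc2 was at -2.66. Esm1, encoding the proteoglycan endocan, was at least 26.4-fold higher, Hapln3, a hyaluronan link protein gene, was at 1.88 and the syndecan gene Sdc1 at 1.38. Sdc1 was under 2-fold against the 3 h control, at 0.66. Has2, the hyaluronan synthase gene, was higher at the high dose at both times, by 1.52 and 1.13, and at the low dose by 1.10; it was chosen for mention after its values were seen.

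Among other metalloproteinase and inhibitor genes 24 of 45 on the array were measured, with 6 lower and 1 higher, and 1 bound each way (median -0.14). Of all genes 10.1% were lower and 9.94% higher, or 12.0% and 11.2% with bounds. Mmp15, a membrane-type metalloproteinase gene, was at least 11.2-fold lower, Adamtsl2 was at -2.90 and Reck, a membrane-anchored inhibitor of metalloproteinases, at -2.39. Against the 3 h control Reck was at -2.20 but Adamtsl2 at 0.18, since its level was -1.96 in the 3 h control, 1.12 in the 48 h control and -1.78 on the 48 h high-dose array. Mmp17, another membrane-type enzyme gene, was at 2.26, and Mmp12, the macrophage elastase, was at least 4.92-fold higher. Macrophage markers were higher on the same array, and their part in the Mmp12 value was not tested. On the 3 h high-dose array 3 of 35 measured other glycoprotein genes and 4 of 22 other proteoglycan and hyaluronan genes passed 2-fold in either direction, and 0 of 25 other metalloproteinase genes did, beside 3.30% of all genes. In the last list 1 gene, Adamts15, was lower as a bound there. It was above background only in the 3 h control, at -3.03.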

How the data were processed

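Total RNA of 5 samples, 1 per group, was labelled with Cy3 and hybridised to 1 array each, per the labels' protocols. The file headers give 1 slide and 1 scan for the whole set. The deposited intensities are linear, with background subtraction and spatial detrending done inside each array in Agilent Feature Extraction 10.7.3.1, per the submitters' processing notes and the file headers, with no normalization between arrays. The log2 of the deposited value table equalled the mean log2 processed intensity of unflagged spots within 0.001 for 100% of probes on each array. The table is thus linear and neither scaled nor centred.

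Spots marked as outliers were left out, the log2 of the processed intensity was averaged per probe and each array's 75th percentile was subtracted. A probe was taken to be above background when the software had marked a share of 0.5 or more of its spots as such. Accessions gave 1 symbol to 26413 probes through the RefSeq table of GRCm38.p6, several to 0 and none to 29268, and the brightest probe stood for its gene. Scanner error comes from the software's error model; probes spotted repeatedly had a median SD between spots of 0.0764 to 0.0811. Differences were called at 2-fold, and limma 3.58.1 in R 4.3.3 gave the only test, with the intensity trend and genes above background on at least 2 of 4 arrays. Both procedures were also run on simulated data. For the 2-fold rule the simulated noise was of scanner size, with no spread between cultures, so it cannot show how the rule fares without replicates. The files hold no mean spot signal, so the normexp alternative used median signals, with an offset of 50. Members and lists were chosen with earlier results of these data known. All listed members are named, with levels on every array for those called at 2-fold where the results turn on them, and of each other matrix list the 3 with the largest called difference in each direction at 48 h.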

Additional observations from a re-analysis of the deposited data

Results flagged for a closer look

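For 6 members the high dose differed from the time-matched control in opposite directions at 3 h and 48 h, by at least 1.5-fold each, a size chosen after the values were seen. These were 6 of the 39 members measured on all 4 arrays, where 284 of all 13482 such genes (2.11%) did the same. The difference between the times was not tested, as each rests on 1 array per group. Postn, encoding periostin, was at 0.89 at 3 h and -5.58 at 48 h. Ltbp1, a latent TGF-beta binding protein gene, was at 0.73 and -1.52, and Lama5, a laminin alpha chain gene, at 0.60 and -1.44. Vcan was at 0.59 and -1.19 on its brightest probe. Tnc, encoding tenascin C, was at 0.80 and -0.83, and Fn1, encoding fibronectin, at 0.62 and -0.70. The 48 h control was the highest of the 5 arrays for Postn, Vcan, Lama5 and Fn1. Against the 3 h control the 48 h high dose was at -2.80 for Postn, -1.35 for Tnc, -0.94 for Ltbp1, -0.82 for Lama5, -0.42 for Vcan and 0.07 for Fn1, which thus lost its opposite sign.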

How the results depend on the processing

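No paired analysis was possible because each group has 1 array and the labels carry no replicate numbers, and for the same reason no replicate could be left out. The count of 24 members called at 48 h was 20 to 32 under all 8 alternatives, lower members outnumbering higher ones in each. The other counts are small and moved more. At a 1.5-fold threshold 17 members were called at the high dose at 3 h, 8 at the low dose, 13 between the doses and 14 between the controls, where 11.0%, 5.92%, 6.90% and 11.2% of all genes were. Against the 48 h control array 9 members were called at the high dose at 3 h, 7 of them lower, and 10 at the low dose, 7 of them higher. The low-dose count of 2 fell to 1 under median centring and to 1 after normexp, which also left 2 calls between the controls. Median centring moved the median of all genes from -0.01 to -0.13 for the high dose at 3 h and from 0.01 to -0.12 between the controls. No called member difference changed sign under any alternative run. After normexp, however, 21 of 40 called differences moved by more than the scanner error and 10 fell under 2-fold, against 5 with the mean of all probes. The offset of 50 in that setting makes folds of dim probes smaller, and its part was not separated from that of the background model. For Fbln5 and Nid1 that mean takes in probes above background on 0 arrays. Against the 3 h control 6 of the 24 calls at 48 h fell under 2-fold. With the lowest single spot above background as the floor, an alternative chosen after seeing the data, that of the 48 h high-dose array was -5.06 instead of -5.28. All 19 bounds at 48 h then stayed past 2-fold and shrank by at most 1.17 times, to 30.8-fold for Aspn and 77.3-fold for Edil3. The limma count stayed 0 in each of its 5 alternatives. Signal over background limits 9 members, which were not above it on every array.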
